A study of Mus musculus with 48 samples.

Results

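The data describe 34 mouse genes of cholesterol and fatty acid metabolism, a list of named genes chosen by pathway, with earlier results of these data known. All 34 were present among the 35661 gene identifiers counted in donor T cells and among the 52636 counted in thymic invariant natural killer T (iNKT) cells. By role, 7 encode enzymes from acetyl-CoA to farnesyl pyrophosphate (the mevalonate arm), 11 encode enzymes from squalene synthesis to cholesterol (the sterol arm), and 5 encode the SREBP transcription factors and the proteins that retain them. A further 4 act in cholesterol efflux, ester storage and receptor turnover, 2 in export from the lysosome, and 5 in fatty acid synthesis and desaturation.

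Cells build cholesterol from acetyl-CoA, and most enzymes of the route are induced together when sterol in the endoplasmic reticulum runs low: SCAP then escorts the SREBP precursors to the Golgi for cleavage, whereas INSIG proteins hold them back when sterol is plentiful. Oxysterols activate the LXR receptors, which induce the exporters ABCA1 and ABCG1 and the ubiquitin ligase MYLIP. In T lymphocytes, activation is known to raise SREBP-driven lipid synthesis and to lower LXR targets, which supplies membrane for division.

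All animals that gave the sequenced cells were FVB/N mice. In the transplant experiment, donor conventional T cells were sorted as CD4 and CD8 cells from spleen and peripheral lymph nodes at day 7 of graft-versus-host disease (GvHD), after transfer from FVB into major-mismatch Balb/C recipients. Recipients had received iNKT1, iNKT2 or iNKT17 cells, or no iNKT cells (untreated), and pre-transplant T cells served as day 0; each of these 5 groups had 3 libraries per T cell type, 30 in all. The thymic cells were iNKT17, iNKT2 and iNKT1, the sublineages that make mainly interleukin-17, interleukin-4 and interferon-gamma, with 2 RNA libraries and 2 ATAC-seq (open chromatin) libraries each, and total iNKT cells of 2 single thymi from mice 8 weeks old in single-cell RNA-seq. Age and sex were not given for the other groups, and the labels do not say that libraries of a group came from separate animals, so that p-values measure the spread between libraries, which may be technical. The titles place the donor libraries in 2 experiments, but the table's columns do not carry that label, so no value within an experiment can be given.

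The donor libraries held 26134241 to 33658426 counts (CD8) and 25323879 to 37055182 counts (CD4), the iNKT RNA libraries 26811373 to 33688697 and the ATAC libraries 13299586 to 42964216. Sorting was visible in the co-receptors: Cd8a was at 357 to 975 CPM (counts-per-million, scaled by TMM) in the CD8 libraries, against 0.536 to 7.46 CPM in the CD4 libraries. In the iNKT RNA, the highest of the 6 libraries was an iNKT17 library for Il23r (632.9 CPM), an iNKT2 library for Zbtb16 (739.9 CPM) and Il4, and an iNKT1 library for Tbx21 (307 CPM) and Ifng. The day 0 libraries also held RNA of other cells. The summed level of 14 myeloid markers was 420.1 to 565.1 CPM at day 7 without treatment and 2914 to 7063 CPM at day 0 in CD8 libraries, and 355.1 to 401.2 CPM at day 7 and 5069 to 11210 CPM at day 0 in CD4 libraries. For 7 B cell markers the sums were 247.6 to 324.5 CPM at day 7 and 960.7 to 1749 CPM at day 0 in CD8 libraries. CD4 day 0 library 3 stood apart from the other CD4 day 0 libraries, with Fasn at 16.2 CPM, against 112 CPM in both others. The median log2 deviation from the mean of all libraries, over the 25% of genes with the longest spans less that over the 25% with the shortest, was -0.39 in library 3, against 0.30 and 0.38 in the others. Its sterol arm sum was 633.5 CPM, against 446.2 and 438.5 CPM, and its myeloid sum 11210 CPM, against 5149 and 5069 CPM. Most of that 11210 came from Cd74 (7972 CPM) and H2-Aa (1996 CPM), the only genes of the myeloid list highest in this library. Its B cell sum was 2205 CPM, mostly from Ighm (1808 CPM), against 1455 and 1340 CPM in the others. The source of these transcripts in library 3 was not tested. Of all donor libraries, CD8 day 0 library 2 was the highest for Lyz2, Csf1r, Cd14, Adgre1, Cd68, Cst3, Fcgr3, C1qa and C1qb. The part of these in its values was not tested, and each CD4 day 0 result below is given with and without it where that changes a call.

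The promoters of 4 members that recur in the results are shown first, as windows from 250 bases before to 50 bases after the transcript start in the RefSeq annotation of GRCm38.p6. Capitals mark the CCAAT box, the letters of the NF-Y factor that works with SREBP at sterol promoters (ATTGG on the opposite strand), and in Hmgcs1, the gene of hydroxymethylglutaryl-CoA synthase, also a match to the sterol regulatory element letters TCACNCCAC. The windows are Hmgcs1 at chr13:119690101-119690400 on the plus strand, Idi1 at chr13:8885356-8885655 on the plus strand, Cyp51 at chr5:4104648-4104947 on the minus strand and Soat1 at chr1:156474279-156474578 on the minus strand.
Hmgcs1: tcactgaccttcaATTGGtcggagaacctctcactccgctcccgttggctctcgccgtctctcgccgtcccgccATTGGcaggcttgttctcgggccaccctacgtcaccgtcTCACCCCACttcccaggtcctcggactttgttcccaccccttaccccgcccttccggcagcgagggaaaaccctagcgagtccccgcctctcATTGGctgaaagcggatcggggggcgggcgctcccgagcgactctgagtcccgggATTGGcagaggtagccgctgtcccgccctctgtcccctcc
Idi1: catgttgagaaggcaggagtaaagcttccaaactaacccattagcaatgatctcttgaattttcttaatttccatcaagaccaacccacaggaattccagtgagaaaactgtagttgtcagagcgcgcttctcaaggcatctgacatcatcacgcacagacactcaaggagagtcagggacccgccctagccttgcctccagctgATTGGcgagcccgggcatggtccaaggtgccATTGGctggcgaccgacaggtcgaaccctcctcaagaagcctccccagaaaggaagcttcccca
Cyp51: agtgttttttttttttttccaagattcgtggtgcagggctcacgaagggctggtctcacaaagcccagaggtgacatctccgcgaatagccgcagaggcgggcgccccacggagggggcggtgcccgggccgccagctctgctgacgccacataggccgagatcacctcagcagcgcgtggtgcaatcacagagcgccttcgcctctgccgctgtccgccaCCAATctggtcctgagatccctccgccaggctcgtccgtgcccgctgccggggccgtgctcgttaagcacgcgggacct
Soat1: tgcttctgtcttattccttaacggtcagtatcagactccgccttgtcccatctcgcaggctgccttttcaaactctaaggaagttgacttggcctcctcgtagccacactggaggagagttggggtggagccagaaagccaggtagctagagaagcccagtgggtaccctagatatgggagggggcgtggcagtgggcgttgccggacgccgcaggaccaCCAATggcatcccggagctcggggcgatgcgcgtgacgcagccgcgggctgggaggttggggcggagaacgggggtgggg
Of the 34 members, 27 had a window in the RefSeq promoter table. The CCAAT letters, searched on both strands, lay in a window of 23 of the 27 members (85.2%) and of 41.1% of 27025 genes. Hmgcs1, with 4 CCAAT boxes and the sterol element at position -137, was the member with a match to TCACNCCAC, which 1.44% of all genes hold, so that 1 of 27 members had it. The letters CACGTG, an E-box that SREBP and other factors can bind, were in 6 of the 27 (22.2%), against 8.09% of genes. These are descriptions of letters in these windows and do not show binding.

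Day 7 of GvHD without iNKT treatment was first compared with day 0, which asks what changes in the donor T cells as the disease develops. In CD8 T cells, 22 of the 34 members passed edgeR's quasi-likelihood test at a Benjamini-Hochberg adjusted p under 0.05. Of these, 11 were higher and 11 lower at day 7, while 60.7% of the 14586 genes tested were called (30.9% higher and 29.8% lower), and the share of members was near that of all genes. The directions fell by role: 7 of 11 sterol arm genes rose and 1 fell, all 4 genes of efflux, storage and receptor turnover fell, and the mevalonate arm was mixed with 2 higher and 3 lower of 7. The median log2 fold change was 0.72 over the sterol arm and -1.19 over the efflux group, beside -0.05 over all genes tested. Over the same libraries, 16 of 16 cell cycle genes rose, with summed levels of 4656 to 5519 CPM at day 7 and 616.5 to 722.3 CPM at day 0. The part of that shift in the members' changes was not tested.

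**Figure D1:**
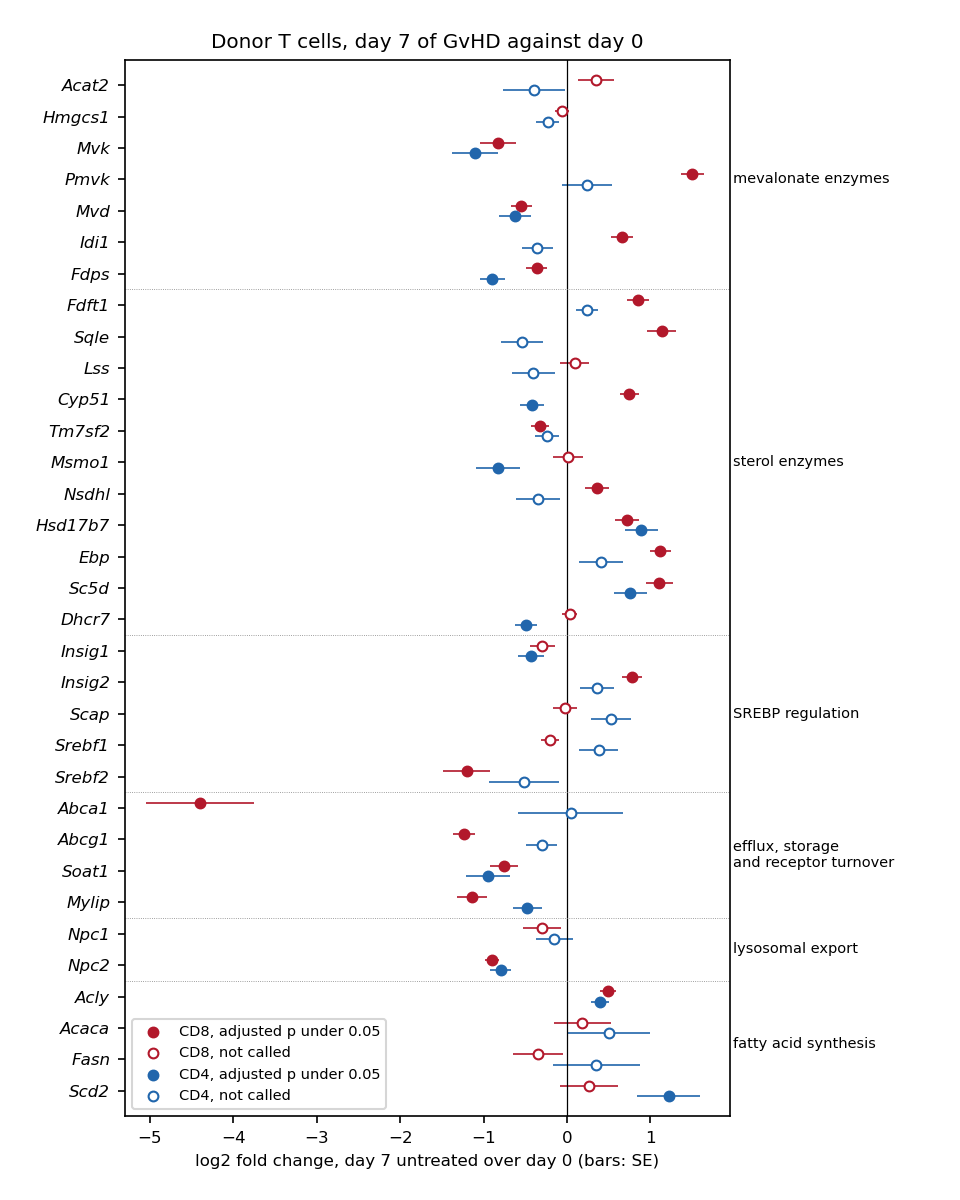
Log2 fold change of each member at day 7 untreated over day 0 in CD8 (red) and CD4 (blue) T cells, with standard errors as bars and members grouped by role; filled points passed the adjusted p of 0.05. Scd1, at -10.90 in CD8 and -10.75 in CD4, lies off the scale and is left out. Red points of the sterol arm lie mostly to the right of 0 and those of the efflux group all to the left.

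In the mevalonate arm of CD8 cells, genes of neighbouring steps went opposite ways. Pmvk encodes phosphomevalonate kinase, the second kinase of the arm. Its levels in CD8 cells were 34.8, 29.99 and 29.3 CPM at day 7 and 10.4, 13.03 and 9.34 CPM at day 0, and each day 7 library lay above each day 0 library, with a log2 fold change of 1.50 ± 0.14 (SE; adjusted p = 2.21e-07). Idi1, whose isomerase supplies dimethylallyl pyrophosphate, was at 53.1, 40.1 and 38.95 CPM at day 7 and 27.6, 28.4 and 26.6 CPM at day 0 in CD8 cells, again without overlap (0.66 ± 0.13; adjusted p = 0.000498). Mvk, the kinase that acts before Pmvk, went the other way, with 5.25, 6.69 and 4.49 CPM at day 7 and 10.4, 8.49 and 9.85 CPM at day 0 (-0.83 ± 0.21; adjusted p = 0.00339). Mvd, the decarboxylase that makes isopentenyl pyrophosphate, fell by 0.55 on the log2 scale (adjusted p = 0.00134). Fdps, the farnesyl pyrophosphate synthase, fell by 0.36 (adjusted p = 0.0239), although 1 of its day 7 libraries lay inside the day 0 range. Hmgcs1 stood at 53.99, 52.3 and 55.2 CPM at day 7 and 54.8, 54.1 and 56.7 CPM at day 0, a log2 difference of -0.06 ± 0.09 that did not pass, and Acat2, the cytosolic thiolase at the entry of the route, did not pass either (0.35 ± 0.22).

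In the sterol arm of CD8 cells, the genes of squalene synthesis and oxidation rose together with later enzymes. Fdft1, the squalene synthase, whose annotated span shares 774 bases with Ctsb, was at 51.8, 43.2 and 35.4 CPM at day 7 and 24.2, 25.02 and 22.1 CPM at day 0 (0.85 ± 0.13; adjusted p = 4.75e-05). Sqle, the squalene epoxidase and a rate-limiting step, was at 54.3, 40.7 and 37.7 CPM at day 7 and 20.3, 23.1 and 16.02 CPM at day 0 (1.14 ± 0.18; adjusted p = 4.99e-05). Cyp51, the lanosterol demethylase, was at 59.98, 48.1 and 44.3 CPM at day 7 and 29.1, 33.04 and 27.5 CPM at day 0 (0.75 ± 0.11; adjusted p = 4.5e-05). All 3 were above every day 0 library in every day 7 library. Ebp, the sterol isomerase, had 117, 86.1 and 98.3 CPM at day 7 and 44.1, 51.8 and 40.7 CPM at day 0 (1.12 ± 0.13; adjusted p = 2.92e-06). Sc5d, the lathosterol desaturase, had 26.8, 38.7 and 27.7 CPM at day 7 and 16.3, 11.7 and 14.6 CPM at day 0 (1.11 ± 0.16; adjusted p = 3.44e-05). Hsd17b7, a 3-keto reductase of the route, rose by 0.72 (adjusted p = 0.000381) and Nsdhl, the decarboxylating dehydrogenase, by 0.36 (adjusted p = 0.0453), both without overlap between the days. Tm7sf2, a sterol reductase, was the sterol arm gene that fell (-0.32 ± 0.11; adjusted p = 0.0197). In RefSeq 13 of the 34 members overlap another gene, and the donor kit does not mark strand. Reads within the shared bases of such pairs cannot be told apart. The annotated spans share 9 bases at Tm7sf2, but 19116 at Acaca, 11269 at Lss, 8982 at Npc1, 7251 at Insig1 and 3213 at Mvd. Lss, the lanosterol synthase, Msmo1, the methylsterol oxidase, and Dhcr7, the last reductase, differed by 0.09, 0.02 and 0.03 and did not pass.

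**Figure D2:**
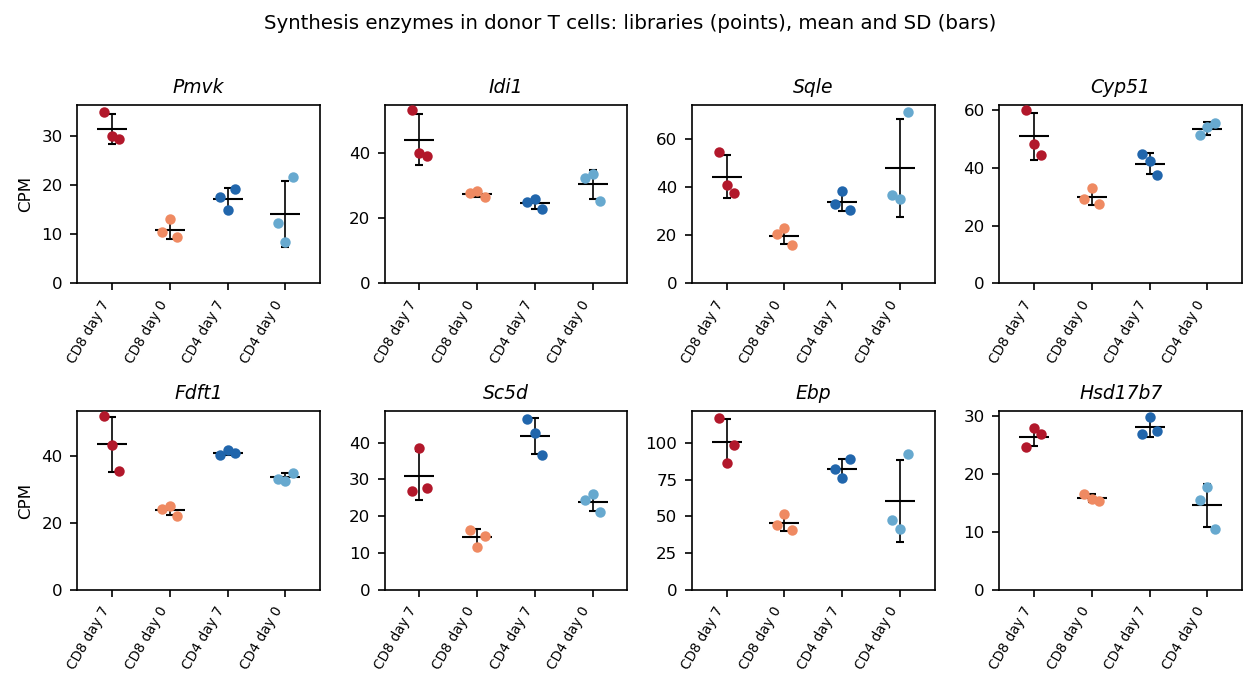
CPM of 8 synthesis genes in untreated day 7 and day 0 libraries of CD8 and CD4 donor T cells; points are libraries, bars the mean and SD of 3. Pmvk in CD8 cells lies at 29.3 CPM or more at day 7, above all of its day 0 libraries, while its CD4 libraries overlap.

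Among the regulators in CD8 cells, the gene of 1 SREBP fell and that of 1 INSIG rose. Srebf2, which encodes SREBP2, the main driver of cholesterol synthesis genes, was at 88.9, 156 and 95.8 CPM at day 7 and 281, 265 and 225 CPM at day 0, with all day 7 libraries lower (-1.20 ± 0.28; adjusted p = 0.00198). Insig2 was at 40.2, 30.7 and 36.3 CPM at day 7 and 19.2, 22.2 and 20.1 CPM at day 0, with all day 7 libraries higher (0.78 ± 0.12; adjusted p = 4.59e-05). Insig1, itself an SREBP target, differed by -0.29 ± 0.15 (adjusted p = 0.104), Srebf1, the gene of SREBP1, by -0.21 ± 0.11 (adjusted p = 0.114) and Scap by -0.02 ± 0.14 (adjusted p = 0.908). None of these 3 passed.

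The 4 genes of efflux, storage and receptor turnover all fell in CD8 cells. Abca1, the exporter that loads cholesterol onto lipid-poor apolipoprotein A-I, was at 0.199, 1.64 and 1.34 CPM at day 7 and 27.99, 15.8 and 22.3 CPM at day 0 (-4.40 ± 0.64; adjusted p = 3.88e-05). Abcg1, the exporter to high-density lipoprotein, was at 41.1, 36.1 and 49.1 CPM at day 7 and 104, 98.5 and 90.1 CPM at day 0 (-1.23 ± 0.14; adjusted p = 1.75e-06). In both, each day 7 library lay below each day 0 library. Mylip, the ligase that marks lipoprotein receptors for degradation, was at 20.9, 17.96 and 28.6 CPM at day 7 and 46.1, 42.4 and 57.8 CPM at day 0 (-1.14 ± 0.18; adjusted p = 6.94e-05). Soat1, which esterifies cholesterol for storage, was at 19.2, 23.7 and 21.6 CPM at day 7 and 40.7, 36.3 and 30.2 CPM at day 0 (-0.76 ± 0.17; adjusted p = 0.00122). Npc2, the soluble carrier that hands cholesterol to NPC1 in the lysosome, was at 205, 186 and 189 CPM at day 7 and 372, 367 and 329 CPM at day 0 (-0.90 ± 0.08; adjusted p = 2.59e-07), while Npc1 did not pass (-0.30 ± 0.23). These falls ran with the fall of the myeloid and B cell marker sums given above, and 11 of the 14 myeloid markers were themselves called lower, with a median log2 fold change of -3.72. The part of those cells in the falls was not tested. In bulk libraries, fewer cells of a type and less RNA per cell cannot be told apart.

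Of the fatty acid genes in CD8 cells, Acly, which makes cytosolic acetyl-CoA from citrate, rose, with 492, 405 and 472 CPM at day 7 and 309, 315 and 334 CPM at day 0 and no overlap (0.49 ± 0.10; adjusted p = 0.000419). Fasn, the fatty acid synthase, Acaca, the acetyl-CoA carboxylase, and Scd2, a stearoyl-CoA desaturase, differed by -0.35 ± 0.30, 0.18 ± 0.34 and 0.27 ± 0.35 and did not pass. Scd1, the desaturase that predominates in liver and fat, was all but missing at day 7. Over the 3 libraries of each day, Scd1 had 1 count of 91405772 at day 7 and 2962 counts of 91309685 at day 0 in CD8 cells, and 1 count of 95993352 at day 7 and 2739 counts of 98304669 at day 0 in CD4 cells. Given as day 0 over day 7, the other way round from the fold changes here, the ratio of these shares was 2970 (95% exact interval 532 to 117000) in CD8 cells and 2670 (480 to 106000) in CD4 cells, where the intervals cover counting error only. The Scd1 call had adjusted p = 1.27e-07 in CD8 and 7.85e-06 in CD4 cells, but Scd1, like Abca1 in CD8 cells, passed the filter on low counts through its day 0 libraries and had to differ. Its day 0 levels were 39.1, 38.5 and 10.96 CPM in CD8 and 31.1, 30.3 and 10.1 CPM in CD4 libraries, which also held the myeloid, B cell and red cell RNA; the part of those cells was not tested.

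Of the 22 CD8 calls, 19 passed in each of the 6 fits that left out 1 of these libraries. Nsdhl (log2 fold change of 0.22 to 0.46 across those fits), Fdps (-0.47 to -0.23) and Tm7sf2 (-0.37 to -0.27) missed the threshold in some. Nsdhl did so without CD8 day 0 library 1 or 3 or day 7 untreated library 1 (highest adjusted p = 0.225), Fdps without day 0 library 2 or day 7 untreated library 3 (0.139), and Tm7sf2 without day 0 library 2 or day 7 untreated library 1 or 2 (0.072).

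In CD4 T cells, the same comparison gave 15 called members, 4 higher and 11 lower, beside 35.6% of 15031 genes called (17.4% higher and 18.2% lower). The 4 that rose were Scd2 (1.22 ± 0.37; adjusted p = 0.0206), Hsd17b7 (0.89 ± 0.19), Sc5d (0.76 ± 0.20) and Acly (0.40 ± 0.10). Scd2 was at 82.7, 92.3 and 57.1 CPM at day 7 and 39.3, 40.1 and 17.01 CPM at day 0, with no overlap. Hsd17b7 was at 26.8, 29.8 and 27.3 CPM at day 7 and 15.5, 17.7 and 10.4 CPM at day 0 (adjusted p = 0.00255), and Sc5d was at 46.4, 42.6 and 36.7 CPM at day 7 and 24.5, 26.003 and 21.2 CPM at day 0 (adjusted p = 0.00854). The mevalonate arm had 3 lower and 0 higher of 7, and the sterol arm 2 higher and 3 lower of 11. In the same CD4 libraries, B cell marker sums were 313.5 to 405.8 CPM at day 7 and 1340 to 2205 CPM at day 0. Erythroid and platelet sums were 3.304 to 9.103 CPM at day 7 and 2904 to 8834 CPM at day 0. Cell cycle sums were 1851 to 2577 CPM at day 7 and 468.9 to 685.1 CPM at day 0. The part of these shifts and of the myeloid fall in the members' CD4 changes was not tested.

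The largest fall in CD4 cells after Scd1 was that of Mvk, with 5.80, 5.07 and 5.76 CPM at day 7 and 10.8, 11.03 and 12.8 CPM at day 0 (-1.10 ± 0.28; adjusted p = 0.0067). Fdps was at 31.8, 32.02 and 32.2 CPM at day 7 and 60.2, 50.2 and 62.4 CPM at day 0 (-0.89 ± 0.15; adjusted p = 0.000335). Npc2 was at 219.5, 194 and 187 CPM at day 7 and 336, 321 and 353 CPM at day 0 (-0.80 ± 0.12; adjusted p = 0.000183). In all 3 genes every day 7 library was below every day 0 library. Soat1 fell by 0.95 (adjusted p = 0.0113), Msmo1 by 0.82 (0.0275), Mvd by 0.62 (0.0187), Dhcr7 by 0.49 (0.0107), Mylip by 0.48 (0.0435), Insig1 by 0.43 (0.0477) and Cyp51 by 0.42 (0.0375). Abca1 and Abcg1 were not called in CD4 cells (0.05 ± 0.63 and -0.30 ± 0.19).

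CD4 day 0 library 3 bore on several of these values. Without it, Msmo1 differed by -0.37 (adjusted p = 0.144) and Mvd and Cyp51 missed the threshold too, whereas Ebp (0.85, adjusted p = 0.00336), Insig2 (0.71, adjusted p = 0.00133) and Srebf2 (-0.90, adjusted p = 0.042) passed, so that 15 members were called again. The count was 8 without CD4 day 7 untreated library 1 or library 2 and 9 without library 3, and 7 of the 15 calls, those of Scd1, Mvk, Fdps, Npc2, Hsd17b7, Sc5d and Acly, passed in all 6 such fits. Cyp51 missed the threshold in 6 of them, Insig1 and Mylip in 5, and Msmo1 and Mvd in 4. With only the day 7 untreated and day 0 groups in the fit, 9 members were called.

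**Figure D3:**
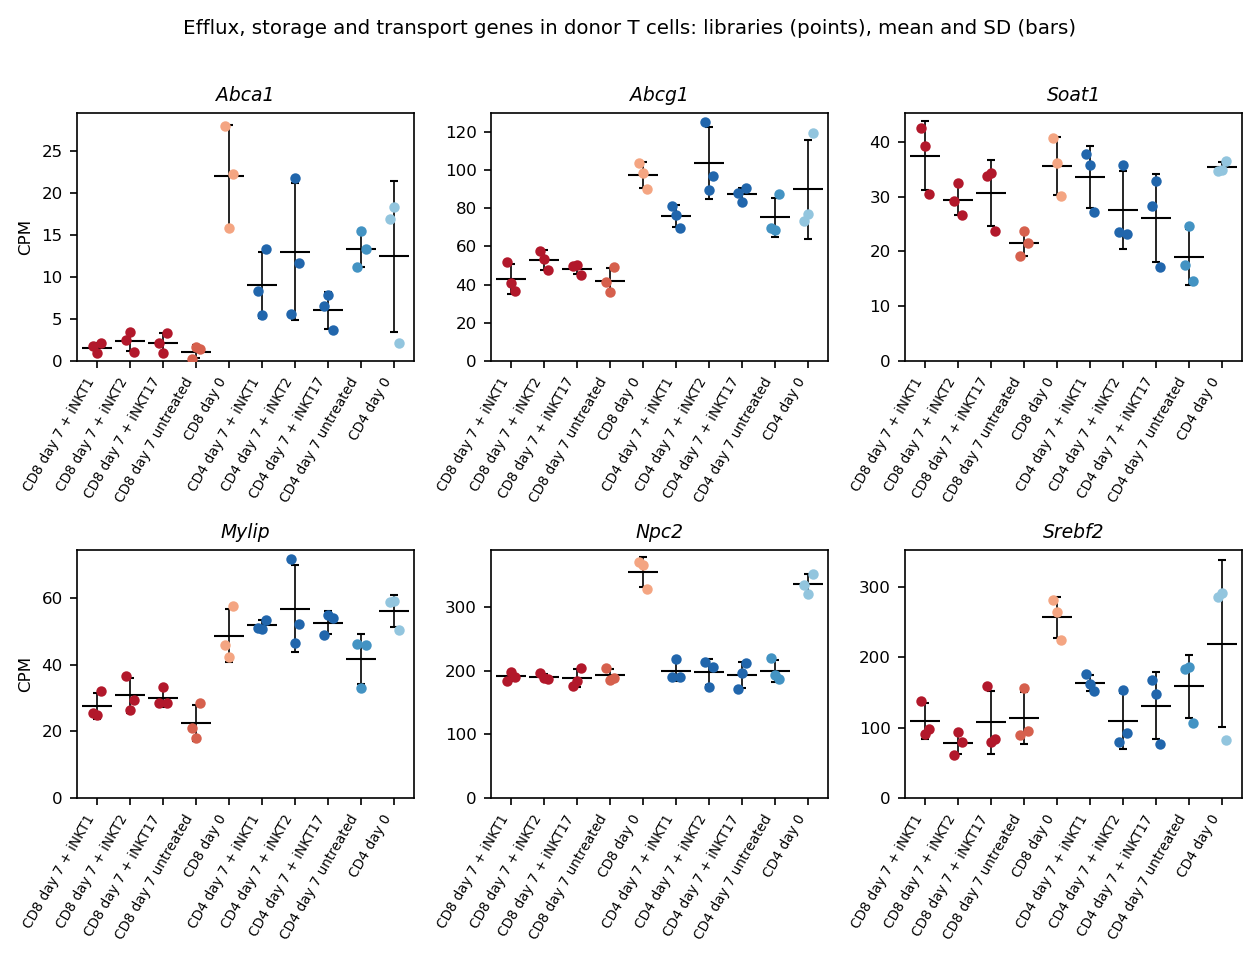
CPM of 6 genes of efflux, storage, transport and SREBP2 in all 10 groups of CD8 and CD4 donor T cells; points are libraries, bars the mean and SD of 3. Abca1 in CD8 cells lies at 0.199 to 1.64 CPM at day 7 untreated, below its day 0 libraries at 15.8 CPM or more, and Soat1 in CD8 cells lies higher in the libraries of iNKT-treated recipients than in the 3 untreated ones.

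CD8 and CD4 cells were then compared with each other. At day 0, 5 members were called, all lower in CD8 cells, beside 8.59% of 15601 genes (4.07% higher and 4.52% lower). These were Sqle, at 20.3, 23.1 and 16.02 CPM in CD8 and 36.9, 35.2 and 71.1 CPM in CD4 cells (-1.27 ± 0.23; adjusted p = 0.000519), Cyp51, at 29.1, 33.04 and 27.5 CPM in CD8 and 51.3, 53.9 and 55.5 CPM in CD4 cells (-0.84 ± 0.13; adjusted p = 5.6e-05), Sc5d (-0.75 ± 0.18), Insig2 (-0.67 ± 0.17) and Fdft1 (-0.50 ± 0.13). Each of the 5 had all CD8 libraries below all CD4 libraries. The sums of 7 erythroid and platelet markers moved the same way without overlap, at 551.7 to 739.2 CPM in CD8 and 2904 to 8834 CPM in CD4 day 0 libraries. Those of 14 myeloid markers overlapped, at 6036, 7063 and 2914 CPM in CD8 and 5149, 5069 and 11210 CPM in CD4 libraries. The sums of 7 B cell markers overlapped too, at 1749, 1712 and 960.7 CPM in CD8 and 1455, 1340 and 2205 CPM in CD4 libraries. Their part in these differences was not tested. Sqle and Cyp51 passed in all 6 fits that left out 1 of these libraries; Fdft1 missed the threshold without CD8 day 0 library 3 (adjusted p = 0.056) and Sc5d without CD8 day 0 library 2 (0.0655). Insig2 missed it without CD8 day 0 library 1 and differed by -0.33 (adjusted p = 0.167) without CD4 day 0 library 3, and with only the 2 day 0 groups in the fit just Cyp51 was called.

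At day 7 without treatment, 2 members were higher and 3 lower in CD8 than in CD4 cells, beside 14.5% of genes called (7.78% higher and 6.67% lower). Pmvk was at 34.8, 29.99 and 29.3 CPM in CD8 and 17.5, 14.9 and 19.2 CPM in CD4 cells (0.87 ± 0.24; adjusted p = 0.016). Idi1 was at 53.1, 40.1 and 38.95 CPM in CD8 and 24.9, 25.9 and 22.8 CPM in CD4 cells (0.84 ± 0.16; adjusted p = 0.000511). The 3 lower genes were Abca1, Abcg1 and Mylip, named above among genes that LXR induces. The part of LXR was not tested. Abca1 was at 0.199, 1.64 and 1.34 CPM in CD8 and 11.2, 15.5 and 13.4 CPM in CD4 cells (-3.65 ± 0.72; adjusted p = 0.000831). Abcg1 was at 41.1, 36.1 and 49.1 CPM in CD8 and 69.98, 68.4 and 87.3 CPM in CD4 cells (-0.84 ± 0.17; adjusted p = 0.00105), and Mylip was at 20.9, 17.96 and 28.6 CPM in CD8 and 46.4, 33.04 and 45.8 CPM in CD4 cells (-0.89 ± 0.18; adjusted p = 0.00112). None of the 5 overlapped between the cell types, but Abca1 passed the filter on low counts without its CD8 day 7 libraries and had to differ, so its p is given as a description. The myeloid marker sums of these day 7 libraries were 420.1 to 565.1 CPM in CD8 and 355.1 to 401.2 CPM in CD4 cells, far below day 0 in both. Pmvk missed the threshold without CD8 day 7 untreated library 1 or CD4 day 7 untreated library 2, with log2 differences of 0.77 to 0.95 across the fits, and Idi1, Abcg1 and Mylip passed in all 6.

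The day 7 effect itself differed between CD8 and CD4 cells in 8 members, by an interaction term over all 30 libraries, beside 8.78% of 15601 genes (4.49% with a higher and 4.29% with a lower effect in CD8). Of the 8, 6 had the higher effect in CD8 cells, all of them synthesis genes. Sqle had a day 7 effect of 1.16 in CD8 and -0.49 in CD4 cells (difference 1.65 ± 0.32; adjusted p = 0.00177). Cyp51 had 0.77 in CD8 and -0.37 in CD4 cells (1.14 ± 0.18; adjusted p = 0.000181). Idi1 had 0.68 in CD8 and -0.31 in CD4 cells (0.99 ± 0.22; adjusted p = 0.00603). The other 3 were Pmvk, Fdft1 and Dhcr7. The 2 with the lower effect in CD8 cells were the exporters Abca1, at -4.38 in CD8 and 0.10 in CD4 cells, and Abcg1, at -1.21 in CD8 and -0.26 in CD4 cells. For Abca1 the limit given above holds here too, since its CD8 day 7 libraries lay under the filter, and its call is a description. The 4 calls of Sqle, Cyp51, Idi1 and Abcg1 passed in all 12 fits that left out 1 library. Pmvk, Fdft1 and Dhcr7 missed the threshold without CD4 day 0 library 3, CD8 day 0 library 1 or 3, or CD8 day 7 untreated library 1. Over the 12 fits Fdft1 and Dhcr7 missed it in 8 each and Pmvk in 5. Cell cycle genes also had the higher effect in CD8 cells in 11 of 16 cases; their part in the members' differences was not tested.

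Treatment with iNKT cells was then compared with no treatment at day 7, the comparison that asks how each sublineage acts on the donor T cells. No member was called in any of the 6 comparisons by edgeR, in 34 members each. Calls over all genes stood at 0.158% of 14586 genes for iNKT1, 0.11% for iNKT2 and 0.206% for iNKT17 in CD8 cells, and 0% of 15031 genes for each of the 3 in CD4 cells. At an unadjusted p under 0.05, the counts were 2 (iNKT1), 7 (iNKT2) and 5 (iNKT17) in CD8 cells and 2, 3 and 1 in the same order in CD4 cells. DESeq2 called 2 members for iNKT1 in CD8 cells, Soat1 and Idi1, and 0 in the other 5 comparisons. A joint test of any difference among the 3 treatments called 0 members in either cell type (edgeR; DESeq2 also 0; unadjusted p under 0.05 for 1 member, Srebf1, in CD8 cells and 0 in CD4 cells).

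Soat1 came closest to the threshold. In CD8 cells it was at 42.7, 39.3 and 30.5 CPM with iNKT1, 29.3, 32.5 and 26.7 CPM with iNKT2, 33.9, 34.3 and 23.7 CPM with iNKT17 and 19.2, 23.7 and 21.6 CPM untreated. Every library of the 3 treated groups lay above the untreated ones, although the lowest iNKT17 and the highest untreated library were both at 23.7 CPM to 3 digits. The log2 differences from untreated were 0.81 ± 0.17 for iNKT1 (adjusted p = 0.0641), 0.46 ± 0.17 for iNKT2 (0.259) and 0.51 ± 0.17 for iNKT17 (0.191). In CD4 cells Soat1 was at 37.9, 35.8 and 27.3 CPM with iNKT1 and 17.6, 24.6 and 14.6 CPM untreated (0.85 ± 0.26; adjusted p = 0.475), and with iNKT2 and iNKT17 it overlapped the untreated libraries. The comparisons share their untreated libraries, so their values are not independent. With no filter on low counts, Soat1 passed for iNKT1 in CD8 cells (adjusted p = 0.0416).

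Idi1 in CD8 cells was at 59.5, 68.1 and 63.6 CPM with iNKT1 and 53.1, 40.1 and 38.95 CPM untreated, without overlap (0.54 ± 0.13; adjusted p = 0.0975 by edgeR and 0.0149 by DESeq2). The remaining members at an unadjusted p under 0.05 had adjusted p-values of 0.215 or more. Among them, Mvd in CD8 cells differed by 0.33 for iNKT2 and 0.32 for iNKT17, Hsd17b7 by -0.42 for iNKT2, and Insig1 in CD4 cells by -0.35 for iNKT1 and -0.42 for iNKT2. The median log2 difference over the 34 members lay between -0.02 and 0.10 in the 6 comparisons. At 3 libraries a group these tests do not show that treated and untreated cells are alike.

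Genes that rose or fell at day 7 were also read across the treated groups. In CD8 cells Pmvk was at 26.1, 30.5 and 27.1 CPM with iNKT1, 29.4, 27.3 and 29.2 CPM with iNKT2, 26.1, 30.2 and 32.7 CPM with iNKT17 and 34.8, 29.99 and 29.3 CPM untreated, with log2 differences from untreated of -0.16 ± 0.13, -0.13 ± 0.13 and -0.09 ± 0.13. Sqle in CD8 cells was at 43.9, 51.6 and 37.05 CPM with iNKT1, 47.6, 39.95 and 41.002 CPM with iNKT2, 35.6, 39.9 and 47.9 CPM with iNKT17 and 54.3, 40.7 and 37.7 CPM untreated (0.01 ± 0.17, -0.04 ± 0.17 and -0.11 ± 0.17). Both stayed above their day 0 libraries in each treated group. Abca1 in CD8 cells was at 1.72, 0.902 and 2.05 CPM with iNKT1, 2.46, 3.36 and 1.05 CPM with iNKT2, 2.09, 0.893 and 3.31 CPM with iNKT17 and 0.199, 1.64 and 1.34 CPM untreated. In CD4 cells Abca1 was at 8.26, 5.50 and 13.3 CPM with iNKT1, 5.61, 21.7 and 11.7 CPM with iNKT2, 6.503, 7.87 and 3.63 CPM with iNKT17 and 11.2, 15.5 and 13.4 CPM untreated, where the iNKT1 and iNKT2 libraries overlapped the untreated ones and the iNKT17 libraries all lay below them, with a log2 difference of -1.13 ± 0.64 (adjusted p = 0.75), which did not pass. Scd1 was at 0 to 0.235 CPM in the CD4 libraries of treated recipients.

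Other lipid pathways were counted over the same libraries, in lists also chosen with earlier results of these data known. The shares of all tested genes called, against which the counts are read, were 30.9% higher and 29.8% lower in CD8 cells and 17.4% higher and 18.2% lower in CD4 cells, as above. Of 19 tested genes of fatty acid oxidation, 15 rose and 1 fell in CD8 cells at day 7 against day 0, and 8 rose and 0 fell in CD4 cells. Acaa2, the last enzyme of mitochondrial oxidation, averaged 253 ± 17.17 CPM at day 7 and 94.7 ± 10.2 CPM at day 0 in CD8 cells (SD, n = 3 each; log2 fold change 1.40, edgeR adjusted p = 1e-08). Acadl, the long-chain dehydrogenase, averaged 138 ± 6.93 CPM at day 7 and 32.4 ± 8.72 CPM at day 0 (2.07; edgeR adjusted p = 2.04e-08; SD, n = 3 each). The fall, named after its value was seen, was that of Ppard, a nuclear receptor (-1.77; edgeR adjusted p = 0.00679). Of 18 genes of fatty acid elongation, desaturation and supply, 7 rose and 5 fell in CD8 cells and 3 rose and 4 fell in CD4 cells. Acsl5, an acyl-CoA synthetase, rose by 1.68 in CD8 and 1.19 in CD4 cells, while Acsl3, another of that family, fell by 4.66 in CD8 and 3.19 in CD4 cells.

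For the remaining lists the CD8 counts are beside a share of 60.7% of all genes called in either direction, and the CD4 counts beside 35.6%. Of 8 genes of SREBP processing, 3 rose and 3 fell in CD8 cells and 4 rose and 0 fell in CD4 cells. Ube2g2, a ubiquitin conjugating enzyme of sterol-regulated degradation, rose by 2.00 in CD8 cells (edgeR adjusted p = 5.89e-09) and 1.18 in CD4 cells (0.00274). Of 8 tested LXR and oxysterol genes, 4 rose and 2 fell in CD8 cells and 3 rose and 1 fell in CD4 cells. The gene of LXR alpha itself, Nr1h3, fell by 5.34 in CD8 and 4.76 in CD4 cells, in the same libraries whose myeloid sums fell, and macrophages are known to express it; the part of such cells was not tested. Gramd1a, which moves plasma membrane cholesterol to the endoplasmic reticulum, fell by 1.71 in CD8 and 0.93 in CD4 cells, while Gramd1b of the same family rose by 1.37 and 1.94 in these cells. Of 12 triglyceride and lipid droplet genes, 5 rose and 5 fell in CD8 cells and 4 rose and 2 fell in CD4 cells. Of 9 genes of the isoprenoid branch, 3 rose and 2 fell in CD8 cells and 1 rose and 2 fell in CD4 cells, and of the sterol uptake and transport genes 4 of 9 tested rose and 3 fell in CD8 cells and 3 of 10 rose and 3 fell in CD4 cells. With iNKT17 treatment, Dhdds, a subunit of the enzyme that makes dolichol, was higher in CD8 cells, with 52.7 ± 4.42 CPM treated and 35.9 ± 2.24 CPM untreated (SD, n = 3 each; log2 fold change 0.55, edgeR adjusted p = 0.0456).

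In the thymic iNKT sublineages, 32 of the 34 members passed the filter on low counts and none was called by edgeR between sublineages. Calls were rare over all 12372 genes as well, at 1.29% for iNKT2 against iNKT1, 2% for iNKT17 against iNKT1 and 0.711% for iNKT17 against iNKT2, with 2 libraries a group and a common biological coefficient of variation of 1.3, against 0.196 in CD8 donor cells. At an unadjusted p under 0.05 the counts of members were 2, 3 and 1, and DESeq2 called 2, 4 and 2. Replicates differed widely: 10 members had 0 counts in 1 library and at least 1 CPM in its replicate. Mvk was such a gene, with 0.0322 and 0 CPM in iNKT17, 8.73 and 16.1 CPM in iNKT2 and 10.1 and 0 CPM in iNKT1 libraries. Idi1 was at 0 and 25.5 CPM in iNKT17, 0 and 0.0724 CPM in iNKT2 and 1.51 and 0 CPM in iNKT1 libraries, and Sqle had 0 counts in all 6.

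Other members had counts in all 6 libraries. With 2 libraries a group, libraries often separated among the 32 tested members. For iNKT2 over iNKT1, all libraries lay above for 7 members and below for 6. These counts were 5 and 5 for iNKT17 over iNKT1 and 4 and 9 for iNKT17 over iNKT2. The share over all genes was not counted. Scd2 was at 320.3 and 299 CPM in iNKT17, 472 and 535 CPM in iNKT2 and 195 and 59.8 CPM in iNKT1 libraries, with no overlap among the 3 sublineages. Its log2 difference was 1.98 ± 0.49 for iNKT2 over iNKT1 (adjusted p = 0.124 by edgeR and 0.000228 by DESeq2), 1.28 ± 0.48 for iNKT17 over iNKT1 (0.378 and 0.0238) and -0.70 ± 0.47 for iNKT17 over iNKT2. Abcg1 was at 36.5 and 19.8 CPM in iNKT17, 97.2 and 86.1 CPM in iNKT2 and 126 and 121 CPM in iNKT1 libraries, again without overlap. It differed by -2.13 ± 0.55 for iNKT17 over iNKT1 (adjusted p = 0.121 by edgeR and 4.83e-05 by DESeq2) and by -1.70 ± 0.55 for iNKT17 over iNKT2 (0.375 and 0.00382). Npc2 was at 352 and 305 CPM in iNKT17, 372 and 328 CPM in iNKT2 and 237 and 209 CPM in iNKT1 libraries, with both other sublineages above iNKT1 (0.65 ± 0.27 for iNKT2 over iNKT1; adjusted p = 0.592 by edgeR and 0.0278 by DESeq2). Mylip was at 111 and 22.4 CPM in iNKT17, 140.1 and 104 CPM in iNKT2 and 189 and 181 CPM in iNKT1 libraries (-1.47 ± 0.65 for iNKT17 over iNKT1, adjusted p = 0.498 by edgeR). Leaving out 1 library left 1 in its group, so only sizes are given, for the fits whose result changed. Without iNKT17 library 1, Mylip differed by -3.03 from iNKT1 and -2.44 from iNKT2, and Abcg1 by -2.63 and -2.20 in the same order. Without iNKT1 library 1, Scd2 differed by 3.06 for iNKT2 and 2.36 for iNKT17 over iNKT1. Without iNKT2 library 1, Scd2 differed by 2.07 for iNKT2 over iNKT1. With no filter on low counts, Scd2 passed in both comparisons with iNKT1. The summed level of 16 cell cycle genes was 570.3 to 1440 CPM in iNKT17, 1188 to 1383 CPM in iNKT2 and 597.9 to 844.6 CPM in iNKT1 libraries.

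**Figure D4:**
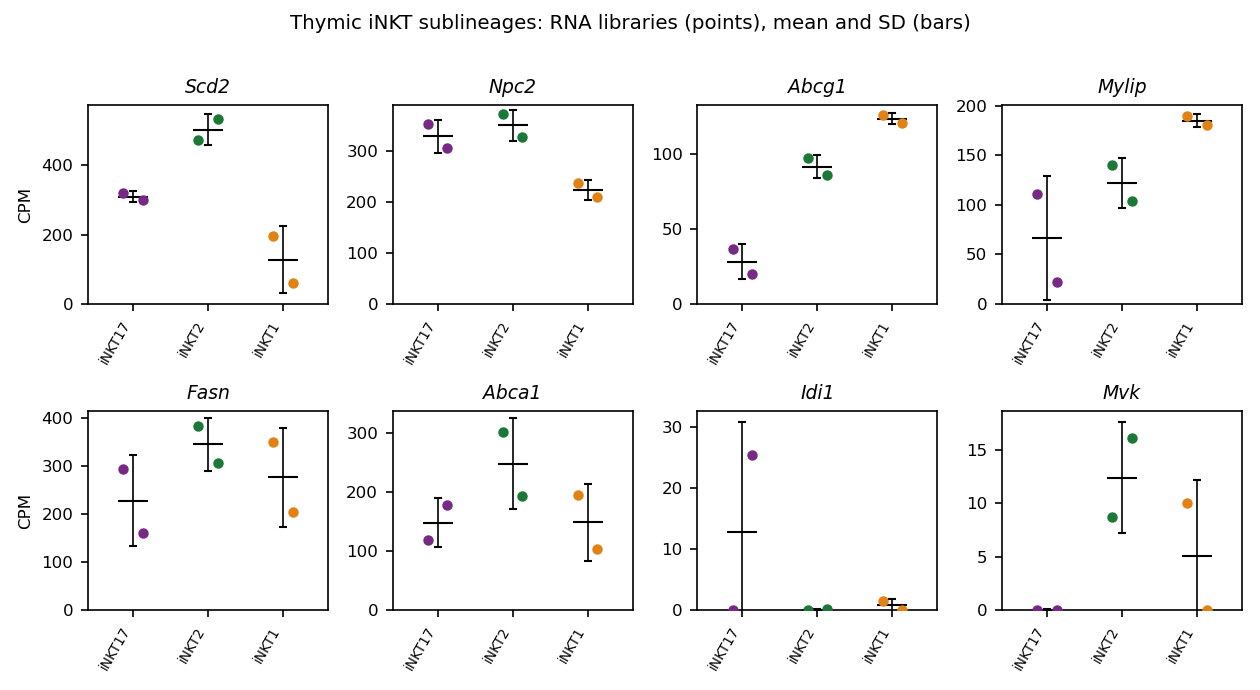
CPM of 8 members in the RNA libraries of thymic iNKT17, iNKT2 and iNKT1 cells; points are libraries, bars the mean and SD of 2. Scd2 and Abcg1 order the sublineages without overlap, while Idi1 and Mvk have libraries at or near 0 beside replicates of up to 25.5 and 16.1 CPM.

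Outside the 34 members, 2 genes of the other pathway lists were called between sublineages, 1 of 8 tested sterol uptake and transport genes for iNKT17 over iNKT1 (2% of all genes called) and 1 of 7 tested LXR and oxysterol genes for iNKT17 over iNKT2 (0.711%). Gramd1a averaged 1157 ± 40.9 CPM in the iNKT17 libraries, against 2208 ± 289.9 CPM in those of iNKT1 (SD, n = 2 each; log2 fold change -0.93, edgeR adjusted p = 0.0223). Gpr183, the receptor for the oxysterol that guides lymphocytes, averaged 187 ± 14.4 CPM in the iNKT17 libraries, against 22.9 ± 0.305 CPM in those of iNKT2 (SD, n = 2 each; 3.03; edgeR adjusted p = 0.021).

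Chromatin at the same genes was read from 96 accessible regions (mm10) that lie in the members or within 2 kb of them, 31 of them over a promoter. Between iNKT2 and iNKT1, 10 were more and 16 less open in iNKT2, beside 38.6% of 54520 regions called (22.3% more and 16.3% less open). Between iNKT17 and iNKT1, 9 were more and 15 less open in iNKT17, beside 37.1% (23.5% and 13.6%), and between iNKT17 and iNKT2, 3 were more and 2 less open in iNKT17, beside 8.34% (5.11% and 3.24%). In this fit, without a replicate block, the called promoter regions were less open than in iNKT1, 7 in iNKT2 and 6 in iNKT17, and 0 of the 31 were called between iNKT17 and iNKT2. Over the 10389 regions at any promoter, 8.6% were called more and 28.6% less open in iNKT2 over iNKT1, 7.99% more and 17.6% less open in iNKT17 over iNKT1, and 1.33% more and 1.02% less open in iNKT17 over iNKT2. The median log2 difference from iNKT1 over these promoter regions was -0.35 in iNKT2 and -0.30 in iNKT17, against 0.24 and 0.23 in other regions.

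The promoter region of Soat1 (chr1:156473831-156474603) holds the Soat1 window printed above and lies within 2 kb of another gene. It had 20.2 and 24.9 CPM in iNKT17, 15.8 and 16.1 CPM in iNKT2 and 47.3 and 55.1 CPM in iNKT1 cells. It was less open in iNKT2 than in iNKT1 (-1.68 ± 0.21; edgeR adjusted p = 0.000517) and in iNKT17 than in iNKT1 (-1.18 ± 0.20; 0.00178). The promoter of Insig1, also near another gene (chr5:28070815-28072184), had 70.3 and 91.7 CPM in iNKT17, 56.6 and 57.4 CPM in iNKT2 and 129 and 148 CPM in iNKT1 cells (-1.28 for iNKT2 and -0.77 for iNKT17 over iNKT1; adjusted p = 0.00138 and 0.0126). The promoter of Hmgcs1 (chr13:119689934-119690842), which holds the sterol element shown above, had 63.1 and 104 CPM in iNKT17, 58.1 and 91.9 CPM in iNKT2 and 136 and 188 CPM in iNKT1 cells, with differences from iNKT1 of -1.11 for iNKT2 (adjusted p = 0.02) and -0.95 for iNKT17 (0.0362). The promoter of Cyp51 (chr5:4104009-4105028), with 57.8 and 78.9 CPM in iNKT17, 42.7 and 60.7 CPM in iNKT2 and 87.95 and 115 CPM in iNKT1 cells, was called less open in iNKT2 than in iNKT1 (-0.97; adjusted p = 0.0136). In each of these 4 promoters both iNKT1 libraries were above all others.

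**Figure D5:**
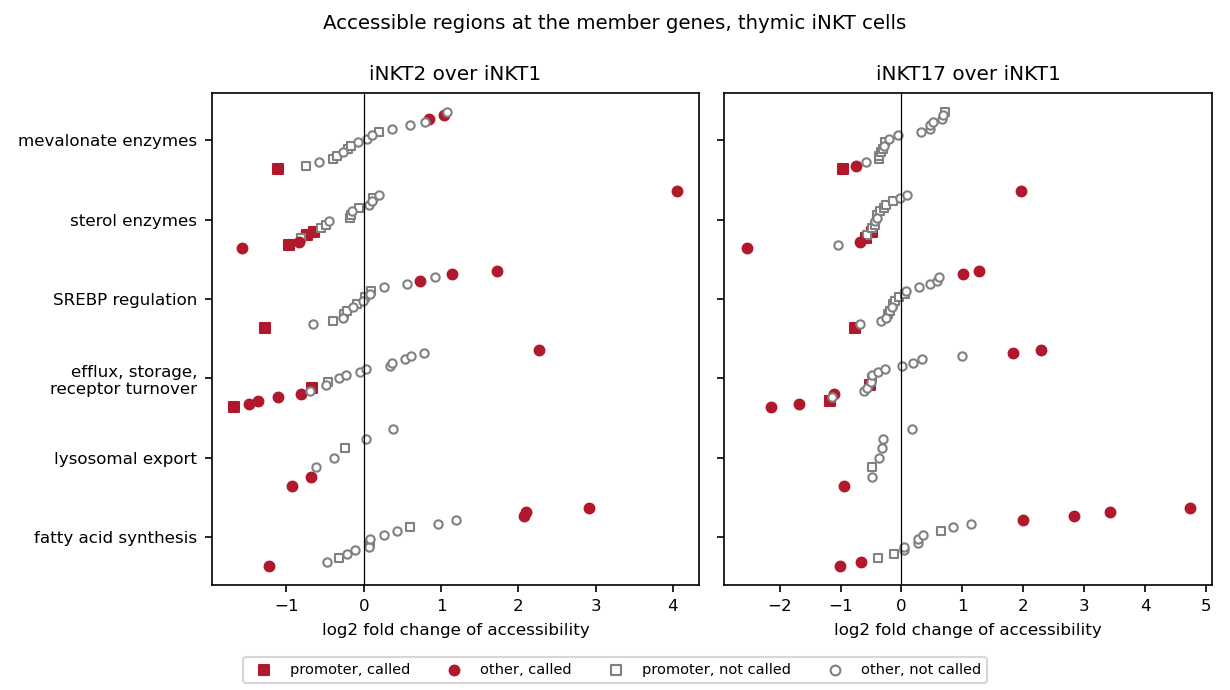
Log2 fold change of accessibility of the 96 regions at the members, iNKT2 over iNKT1 (left) and iNKT17 over iNKT1 (right), by role; squares are promoter regions, circles other regions, and red marks an adjusted p under 0.05. All red squares lie left of 0, while red circles lie on both sides, up to 4.06 for Fdft1 in iNKT2 and 4.74 for Acaca in iNKT17, 2 regions that passed the filter on low counts without their iNKT1 libraries.

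Regions away from promoters were called in both directions. A region at Fdft1 (chr14:63150484-63150949), which also lies within 2 kb of another gene, had 3.35 and 2.60 CPM in iNKT17, 11.7 and 13.7 CPM in iNKT2 and 1.09 and 0.352 CPM in iNKT1 cells. Its log2 difference was 4.06 ± 0.48 for iNKT2 over iNKT1 (edgeR adjusted p = 0.00047) and -2.10 for iNKT17 over iNKT2 (0.02). A region at Acaca (chr11:84205615-84206296), also near another gene, had the largest difference of the 96 for iNKT17 over iNKT1, with 9.38 and 8.02 CPM in iNKT17, 1.54 and 1.18 CPM in iNKT2 and 0.462 and 0.132 CPM in iNKT1 cells (4.74 ± 0.51 over iNKT1; 0.000197). The Fdft1 region and this Acaca region passed the filter on low counts without their iNKT1 libraries and had to differ from iNKT1, so their p-values against iNKT1 are descriptions. A second Acaca region (chr11:84168785-84169167) had 9.68 and 8.30 CPM in iNKT17, 4.10 and 3.07 CPM in iNKT2 and 0.876 and 0.791 CPM in iNKT1 cells. These regions order the sublineages without overlap between libraries. Another Acaca region (chr11:84179039-84180072) was called less open than in iNKT1 in both. Across fits that left out 1 library it differed by -1.29 to -1.15 (iNKT2) and -1.14 to -0.94 (iNKT17). Outside its promoter, Soat1 had a region called more open in iNKT17 than in iNKT1 (chr1:156462574-156463021, 1.90 to 2.53 across the fits). Another (chr1:156459531-156460199) was called less open in iNKT2 than in iNKT1 (-1.27 to -0.93).

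At Scd2, whose RNA was higher in both other sublineages than in iNKT1 without passing the test, a region (chr19:44301015-44301491) had 6.34 and 4.38 CPM in iNKT17, 8.86 and 11.4 CPM in iNKT2 and 1.39 and 1.27 CPM in iNKT1 cells (2.92 ± 0.34 for iNKT2 and 2.00 ± 0.33 for iNKT17 over iNKT1; edgeR adjusted p = 0.00043 and 0.00151). At Abcg1, whose RNA was lowest in iNKT17 and highest in iNKT1, a region (chr17:31077400-31077909) had 10.1 and 9.998 CPM in iNKT17, 13.7 and 11.3 CPM in iNKT2 and 33.7 and 31.1 CPM in iNKT1 cells (-1.69 ± 0.22 for iNKT17 over iNKT1; 0.000451). At Mylip, a region outside the promoter (chr13:45413850-45414511) had 3.04 and 3.13 CPM in iNKT17, 5.27 and 4.49 CPM in iNKT2 and 15.1 and 12.3 CPM in iNKT1 cells (-2.15 ± 0.27 for iNKT17 over iNKT1; 0.000395). In these regions the iNKT1 libraries were the lowest at Scd2 and the highest at Abcg1 and Mylip. Another of the 4 Scd2 regions (chr19:44295329-44296059) was called less open in iNKT17 than in iNKT1. It differed by -0.75 to -0.62 across fits that left out 1 library, and was not called in iNKT2 (-0.47). The Abcg1 region was the only one called of 8 at that gene. At Lss, a region outside the promoter (chr10:76542684-76543402) was less open in iNKT17 and iNKT2 than in iNKT1 (-2.54 and -1.58; adjusted p = 0.000123 and 0.00128). At Abca1, a region (chr4:53115907-53116127) was more open in iNKT17 and iNKT2 than in iNKT1 (1.83 and 2.27; adjusted p = 0.00228 and 0.00112). The Abca1 promoter (chr4:53159654-53160183) and a region beside it (chr4:53158659-53158953) were called less open in iNKT2 than in iNKT1. Across fits that left out 1 library, they differed by -0.84 to -0.46 and by -0.97 to -0.65. In iNKT17 they were not called against iNKT1 (-0.49 and -0.61).

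Of the called regions, 11 of 26 (iNKT2 against iNKT1), 13 of 24 (iNKT17 against iNKT1) and 0 of 5 (iNKT17 against iNKT2) passed in all 4 fits that left out 1 library of either group. Among those named, the calls against iNKT1 of the Soat1 promoter and of the Soat1 region at chr1:156462574-156463021 were among them. So were those of the Scd2 region at chr19:44301015-44301491, the Abca1 region at chr4:53115907-53116127 and the named Abcg1, Mylip and Lss regions. The named calls of the Abca1 promoter and the region beside it were not among them. Nor were those of the Scd2 region at chr19:44295329-44296059 and the Soat1 region at chr1:156459531-156460199. The Hmgcs1 promoter missed the threshold without iNKT1 library 2 (or iNKT2 library 1, or iNKT17 library 1), with log2 differences of -1.48 to -0.79 for iNKT2 and -1.34 to -0.71 for iNKT17 across the fits. The Cyp51 promoter missed it without iNKT1 library 2 or iNKT2 library 1 (-1.25 to -0.71), the Insig1 promoter in iNKT17 without iNKT1 library 2 or iNKT17 library 1 (-0.95 to -0.66), and the first Acaca region in iNKT2 without iNKT1 library 2 or iNKT2 library 1 (1.57 to 3.32).

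In the single-cell libraries of total thymic iNKT cells, 144 and 145 cells with at least 500 detected genes held 832345 and 895326 transcripts counted by molecular identifier (UMIs), with median depths of 5175 and 5815 UMIs and 0 shared barcodes. Npc2 had 257 and 260 UMIs in 110 and 114 cells. Acly had 36 and 52 UMIs, Scd2 36 and 48, Ebp 43 and 37, and Abcg1 23 and 23. Sqle and Scd1 had 0 UMIs in both thymi, which allows up to 3.60 and 3.35 CPM (3 counts of the total). At this depth most members cannot be compared between cells, and the 2 thymi are not groups of a comparison.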

How the data were processed

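Gene counts of 30 donor T cell and 6 iNKT RNA libraries, counts per region of 6 ATAC libraries and UMI counts of 2 single-cell libraries were used as the authors deposited them, without normalization. The iNKT RNA was read with the stranded TruSeq mRNA kit and the donor RNA with SMARTer cDNA and Nextera XT, which do not mark strand, per the labels' protocols. Per the submitters' processing notes, STAR 2.5.4, kallisto, Bowtie2, MACS2, HOMER 4.9.1, bedtools 2.27.1, Cell Ranger 2.1, Seurat 3 and DESeq2 1.22.2 were used with mm10 and GRCm38; their roles and any use of strand are not given in the sources used here.

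The sorted CD4-positive and CD4-negative iNKT1 libraries were not analysed here. Counts were tested with edgeR 4.0.16 (TMM, filterByExpr with a minimum count of 10, robust quasi-likelihood; limma 3.58.1, R 4.3.3) in 1 fit each for iNKT RNA, CD4, CD8, all donor libraries and ATAC, with Benjamini-Hochberg adjustment over all features and calls at 0.05. Donor levels are CPM scaled over all 30 libraries. The fits were tested on simulated data. Alternatives were median-ratio scaling, no low-count filter, DESeq2 1.42.0, only the compared groups, a replicate block and leaving out each library. Members were named by role, called members in full and up to 3 called genes per other list. The members and lists were chosen with earlier results of these data known. Symbols matched 63.1% of donor and 54.2% of iNKT gene identifiers, all members among them. Cells with at least 500 genes were kept and no doublet caller was run. Intervals and floors cover counting error only. Replicates differed by more than counting noise in every group (chi-square per degree of freedom of at least 12.2), so none was merged.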

Additional observations from a re-analysis of the deposited data

Results flagged for a closer look

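The day 7 effect differed between CD8 and CD4 donor T cells in 8 members by the interaction term of edgeR (n = 3 libraries per group). The difference, CD8 minus CD4 on the log2 scale, was 1.65 for Sqle, 1.24 for Pmvk, 1.14 for Cyp51, 0.99 for Idi1, 0.58 for Fdft1 and 0.50 for Dhcr7, all synthesis enzymes, and -4.47 for Abca1 and -0.95 for Abcg1, the exporters. Abca1 passed the filter on low counts without its CD8 day 7 libraries, so its value is a description. Sqle and Cyp51 were also lower in CD8 than in CD4 cells at day 0 (log2 differences of -1.27 and -0.84), while their levels at day 7 did not pass the test between the cell types (0.38 and 0.29). Abca1, Abcg1, Pmvk and Idi1 passed between the cell types at day 7 and not at day 0, where they differed by 0.82, 0.11, -0.37 and -0.14. The summed myeloid markers at day 0 overlapped, at 2914 to 7063 CPM in CD8 and 5069 to 11210 CPM in CD4 libraries. Those of erythroid and platelet markers did not, at 551.7 to 739.2 CPM in CD8 and 2904 to 8834 CPM in CD4 libraries. The part of both in these differences was not tested.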

How the results depend on the processing

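Leaving out 1 library at a time gave 20 to 21 called members in CD8 cells at day 7 (22 with all libraries), 8 to 15 in CD4 cells (15), 4 to 6 between CD8 and CD4 at day 0 (5) and 4 to 6 at day 7 (5), and 5 to 10 for the interaction (8). It gave 0 in every comparison of iNKT treatments, 0 to 1, 0 to 2 and 0 to 2 in the iNKT RNA comparisons (iNKT2 over iNKT1, iNKT17 over iNKT1, iNKT17 over iNKT2), and 11 to 25, 15 to 21 and 0 to 4 called regions for ATAC (26, 24 and 5); where 1 library of a group was left, it was assumed to vary like the other groups. With only the compared groups, 9 members were called in CD4 cells at day 7 and 1 between CD8 and CD4 cells at day 0. With no low-count filter, 1 was called for CD8 cells with iNKT1, 1 for iNKT2 over iNKT1 and 1 for iNKT17 over iNKT1. DESeq2 called 2 for CD8 cells with iNKT1, 2, 4 and 2 in the iNKT RNA comparisons, and 8 ATAC regions for iNKT17 over iNKT2. The causes were not tested.

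The labels do not say what shared replicate numbers mark, so they were not taken as pairs. With the replicate block, 49, 55 and 15 ATAC regions were called, with correlations of same-numbered libraries' deviations of 0.438 to 0.602. Among promoters, the block called Idi1, Cyp51, Msmo1, Insig1 and Soat1 more open in iNKT17 than in iNKT2 (edgeR adjusted p = 0.0173, 0.0156, 0.0485, 0.0131 and 0.0278). Pmvk was called more open in iNKT17 than in iNKT1 (0.73, adjusted p = 0.0445). The other promoters it added were less open than in iNKT1. In iNKT2 they were Acat2, Mvk, Idi1, Msmo1, Hsd17b7, Dhcr7, Insig2, Mylip and Fasn (-0.85 to -0.32). In iNKT17 they were Acat2, Mvk, Mvd, Idi1, Cyp51, Msmo1, Nsdhl, Hsd17b7, Dhcr7, Abca1, Npc2 and Fasn (-0.57 to -0.28). CD4 cells at day 7 kept a count of 15 and CD8 against CD4 cells at day 7 gave 6. No paired analysis was possible because the CD8 day 0 columns share 1 name, for CD8 at day 7 against day 0, CD8 against CD4 at day 0 and the interaction. No direction of a called member turned under any of these settings. The iNKT libraries limit what can be seen through the spread of their replicates, a biological coefficient of variation of 1.3, against 0.288 in CD4 and 0.196 in CD8 donor cells.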
